A study of Mus musculus with 6 samples.

Results

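The C/EBP transcription factors (CCAAT/enhancer-binding proteins) were followed here through the mRNA of 4 of their genes, Cebpa, Cebpb, Cebpd and Cebpg. The members were taken by gene name from a table of 41819 mouse genes. They had been selected on the counts of these same dishes, with the fold changes between the groups in view, so their differences between the groups are given as a description without a test. Of the 4, Cebpb, Cebpd and Cebpg were among the 11509 genes that passed a filter on low counts, whereas Cebpa did not. According to the methods, the RNA came from 1 puromycin-resistant clone of mouse 3T3 embryonic fibroblasts, a line that the labels class as malignant. The clone carried a lentiviral cassette for human PARG (hPARG, the enzyme that degrades poly(ADP-ribose)) and the fluorescent protein mClover3 under a doxycycline-inducible TetOne promoter. It was split into 6 dishes, all kept in puromycin, of which the control group (3 dishes) received no doxycycline and the hPARG group (3 dishes) received 500 ng/ml doxycycline for 72 h. Since all hPARG dishes and no control dishes were given doxycycline, the effects of the drug and of hPARG cannot be told apart in these 6 dishes. The study also gave doxycycline to cells without the cassette and measured selected genes there by qPCR, which was not used here. The labels and the methods for the RNA both put the 2 groups in cells with the cassette, without or with doxycycline, but the study elsewhere speaks of non-transfected control cells. If the latter held, the group differences below would also contain those between the clone and its parent line. The sample labels speak of wells of a 6-well plate where the methods speak of dishes. As all dishes stem from this split, the errors below measure the spread between dishes of 1 clone.

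C/EBP proteins share a basic leucine zipper (bZIP), with which they pair as homodimers or heterodimers and bind DNA. C/EBPalpha is best known for the differentiation of fat cells, liver cells and granulocytes. C/EBPbeta and C/EBPdelta respond to interleukin-1, interleukin-6, interleukin-17 and TNF and bind, often together with NF-kB, at acute-phase and chemokine genes, and in preadipocyte lines of the 3T3 family they act ahead of C/EBPalpha. C/EBPgamma lacks a transactivation domain and works mainly through its partners, among them ATF4. Cebpb mRNA is translated from alternative start codons into activating and inhibitory proteins, a distinction that counts per gene do not show.

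Total counts lay between 21619908 and 25263818 per dish. Fibroblast markers passed the filter in 10 of 12 cases, with Vim and Col1a2 among the highest, whereas Dcn and Lum reached no more than 15 and 4 counts in any dish. Markers of other cell types were low: none of 6 epithelial and 1 of 5 endothelial markers passed the filter (Kdr, with 4 to 22 counts), and of 7 macrophage markers 3 did (Cd14, Lyz2 and Cd68), while Ptprc had at most 5 counts and Adgre1 none. The summed CPM (counts relative to the TMM-scaled library size) of the macrophage markers was 14 to 18.9 in the control and 11.2 to 18.3 in the hPARG dishes, and that of the fibroblast markers 7320 to 8528 and 8447 to 9713. Of the 10 tested fibroblast markers, 4 lay wholly higher with hPARG (Col1a1, Col3a1, Col5a1 and Thy1) and 1 wholly lower (Pdgfra), and none (0) was called by edgeR or DESeq2, with 5 at an unadjusted p under 0.05. Of all tested genes, 3.61% lay wholly higher, 6.00% wholly lower, and 3.95% had such a p. The part of cell make-up in the results below was not tested, and in bulk RNA fewer cells that express a gene and less RNA per cell cannot be told apart. The control and hPARG dishes that carry the number 2 stood apart from the other 4 along the first principal component (their scores were positive, those of the others -27.4 to -3.17), and values are also given without them. The table lists mouse genes, so the hPARG transcript was not analysed here, and the mouse gene Parg had 1032 to 1317 counts in the control and 1095 to 1400 in the hPARG dishes.

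The genes lie on 3 chromosomes of GRCm38. Cebpb (ENSMUSG00000056501) is on the plus strand of chromosome 2 (167688915 to 167690418) and consists of 1 exon of 1504 bases. Cebpd (ENSMUSG00000071637) occupies 15887286 to 15891031 on the plus strand of chromosome 16, with 3746 exon bases. Cebpa (ENSMUSG00000034957, chromosome 7, 35119293 to 35121928, plus strand, 2636 exon bases) and Cebpg (ENSMUSG00000056216, chromosome 7, 35046422 to 35056573, minus strand, 5621 exon bases) are adjacent protein-coding genes that point away from each other, with 62.7 kb between their starts in the annotation.

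To show the region ahead of the start site, the 250 bases upstream of the RefSeq start are given for the 3 members with an entry among the RefSeq promoters (GRCm38.p6), namely Cebpb, whose groups were separate, Cebpg, whose groups were not, and Cebpa, which was hardly detected. They are written on the strand of the gene, 5′ to 3′, and capitals mark every match, on either strand, to 6 short motifs. The box that places the polymerase was searched as TATAAA. The site of the NF-Y factor was searched as CCAAT. The core of a cAMP response element was searched as TGACG, and the box of the Sp1 family as GGGCGG. A C/EBP site was searched as TTGCNNAA and a STAT site as TTCNNNGAA.
Cebpb, chr2:167688665-167688914, plus strand: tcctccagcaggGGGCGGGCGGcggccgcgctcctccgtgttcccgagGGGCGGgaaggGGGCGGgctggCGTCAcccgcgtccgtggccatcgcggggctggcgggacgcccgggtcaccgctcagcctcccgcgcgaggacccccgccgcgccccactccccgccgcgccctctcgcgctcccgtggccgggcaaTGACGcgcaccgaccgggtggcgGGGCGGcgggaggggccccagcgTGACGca
Cebpg, chr7:35056567-35056816, minus strand: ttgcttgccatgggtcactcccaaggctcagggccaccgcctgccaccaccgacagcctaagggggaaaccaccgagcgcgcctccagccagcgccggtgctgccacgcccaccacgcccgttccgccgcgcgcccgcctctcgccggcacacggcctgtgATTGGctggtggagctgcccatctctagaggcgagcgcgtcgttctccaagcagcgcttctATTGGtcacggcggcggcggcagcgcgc
Cebpa, chr7:35119043-35119292, plus strand: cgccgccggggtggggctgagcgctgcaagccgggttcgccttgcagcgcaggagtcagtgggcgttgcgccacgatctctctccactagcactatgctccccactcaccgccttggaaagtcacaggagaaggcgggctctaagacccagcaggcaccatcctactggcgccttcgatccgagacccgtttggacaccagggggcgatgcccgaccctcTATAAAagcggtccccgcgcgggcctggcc
The Cebpb window holds TGACG 3 times, beginning 180, 53 and 7 bases ahead of the start, the first of them on the opposite strand. It also holds GGGCGG 5 times, of which the 2 farthest from the start overlap. The Cebpg window holds CCAAT on the opposite strand, read as ATTGG, beginning 89 and 28 bases ahead of the start. The Cebpa window holds TATAAA 30 bases ahead of the start and none of the other motifs. Neither TTGCNNAA nor TTCNNNGAA was found in these 3 windows. Among 32817 promoter windows of the same length, TATAAA was present in 12.4%, CCAAT in 33.8%, TGACG in 17.7%, GGGCGG in 32.7%, TTGCNNAA in 9.57% and TTCNNNGAA in 7.01%. GC content was 81.6% for Cebpb, 70.8% for Cebpg and 66.4% for Cebpa, against a median of 52.4% over all windows. These matches are letters in a sequence, and binding was not measured. Cebpd had no window.

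Levels of different genes were compared on the RPKM scale (reads per kilobase of exon model, scaled to the size of the library). Cebpb was the most abundant member in every dish, at 126, 122 and 113 RPKM in the control dishes (1 to 3, in this order) against 96.2, 87.6 and 65.2 RPKM with hPARG. Cebpg followed at 16.6, 21.7 and 17.3 RPKM in the controls against 16.3, 18.5 and 15.3 RPKM with hPARG. Cebpd was lower again, at 5.16, 4.76 and 5.62 RPKM in the controls against 3.17, 2.88 and 2.5 RPKM with hPARG. This order held in each of the 6 dishes, and the ranges of neighbouring members did not overlap. Cebpa had 0.0782 RPKM at most.

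Cebpb therefore made up most of the summed RPKM of the 4 genes. Its share was 83.5% ± 1.56 (SD, n = 3) in the control and 80.7% ± 2.33 (SD, n = 3) in the hPARG dishes. The share of Cebpg was 12.8% ± 1.66 (SD, n = 3) and 16.5% ± 2.20 (SD, n = 3), and that of Cebpd 3.61% ± 0.474 (SD, n = 3) and 2.80% ± 0.189 (SD, n = 3). The shares of Cebpd did not overlap between the groups (3.20% to 4.13% against 2.64% to 3.01%), while those of Cebpb and Cebpg did. The sum itself was 148, 149 and 136 RPKM in the controls against 116, 109 and 83.1 RPKM with hPARG, without overlap. Cebpb stood 5.65 to 7.58 times above Cebpg in the control and 4.27 to 5.91 times above it in the hPARG dishes. Against Cebpd, Cebpb stood 20.1 to 25.7 times higher in the control and 26.1 to 30.5 times higher in the hPARG dishes.

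**Figure D1:**
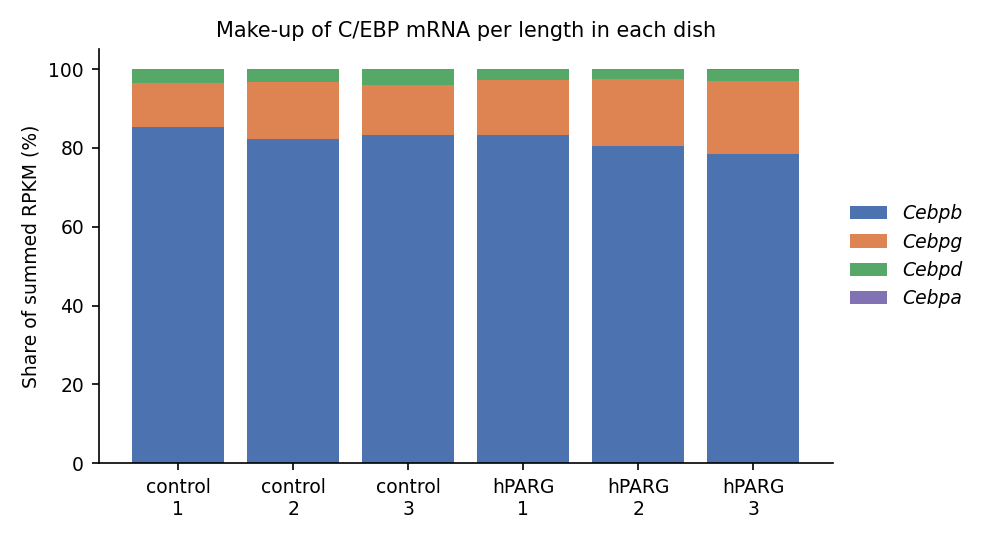
Share of each gene in the summed RPKM of Cebpa, Cebpb, Cebpd and Cebpg, in percent, as stacked bars for the 6 dishes. Cebpb fills between 78.5% and 85.3% of each bar, and Cebpa (at most 0.0555%) is too small to see.

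The question put to the members was how their mRNA differed between cells with induced hPARG and the control. Cebpd, an early-response C/EBP gene that cytokines and glucocorticoids raise, differed most on the log2 scale. It had 531, 433 and 500 counts in the control dishes (1 to 3, in this order) against 285, 281 and 231 with hPARG, or 20.7, 18.6 and 23.6 CPM against 13.1, 11.6 and 10.6 CPM. All hPARG dishes lay below all control dishes, and the lowest control dish was 1.43 times the highest hPARG dish. Mean levels were 21 ± 2.48 and 11.7 ± 1.24 CPM (SD, n = 3), and edgeR fitted a log2 fold change of -0.84 with a standard error (SE) of 0.134, which put the hPARG group at 0.56 of the control. Without the dishes numbered 2 the log2 fold change was -0.90 (SE 0.134).

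Cebpb, the most abundant of the 4 genes and a mediator of the acute-phase response, had 5202, 4467 and 4045 counts in the controls against 3469, 3436 and 2423 with hPARG. In CPM these were 203, 192 and 191 against 159, 142 and 111, again without overlap between the groups. The control dishes lay close together, with a ratio of 1.06 between the highest and the lowest, whereas the hPARG dishes spread over a ratio of 1.43, with dish 3 the lowest. Mean levels were 195 ± 6.75 and 137 ± 24.2 CPM (SD, n = 3). The fitted log2 fold change was -0.51 (SE 0.139), or 0.703 of the control, and it was -0.54 (SE 0.133) without the dishes numbered 2. Leaving out hPARG dish 3 gave -0.38 (SE 0.118).

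Cebpg, the partner of ATF4, had 2284, 2632 and 2053 counts in the controls against 1954, 2418 and 1888 with hPARG. Its CPM of 89.1, 113 and 96.8 overlapped with 89.6, 99.6 and 86.6 in the hPARG dishes, and the dish numbered 2 was the highest of each group. The log2 fold change was -0.12 (SE 0.12), and without the dishes numbered 2 it was -0.07 (SE 0.0913).

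Cebpa had 0, 5 and 2 counts in the control dishes (1 to 3, in this order) against 1, 0 and 3 with hPARG. A count of 3 was taken as the floor of detection, which corresponds to 0.117 to 0.141 CPM, so that 1 dish lay above it and no fold change is given. These floors cover counting error only, because the reads carry no molecular identifiers. The gene was barely detectable at this depth in either group.

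**Figure D2:**
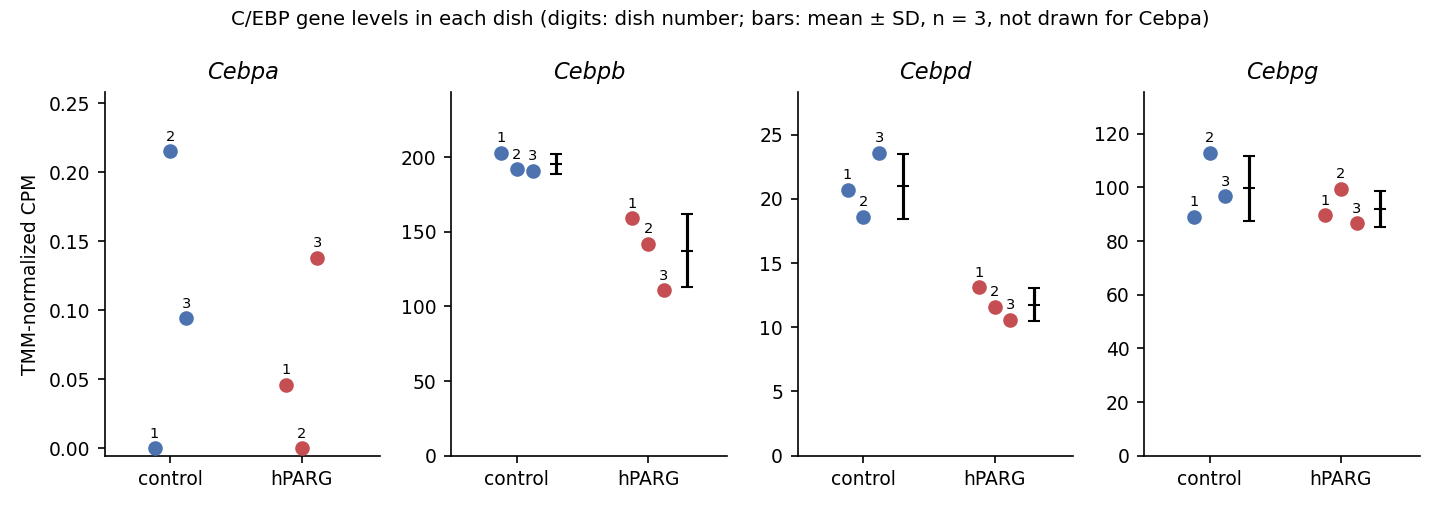
TMM-normalized CPM of the 4 C/EBP genes in each dish, with a linear axis of its own for each gene, points numbered by dish and bars for the mean ± SD of 3 dishes. For Cebpb and Cebpd the 3 hPARG points sit below the 3 control points, for Cebpg they overlap, and all Cebpa points lie at or under 0.215 CPM.

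None of the 3 tested members (0) was called by edgeR's quasi-likelihood test at a false discovery rate (FDR) under 0.05 with a difference of more than 2-fold, a rule that called 0.0869% of all tested genes (0.0782% lower and 0.00869% higher with hPARG). At an unadjusted p under 0.05 there were 2 of them, both lower with hPARG, against 3.95% of all tested genes in either direction and 2.54% in this one. DESeq2 also called 0 of the 3 by that rule (0.191% of all genes), and 1 at any fold change (0.452% of all genes). The hPARG dishes lay wholly below the control for 2 of the 3, and this was so for 6.00% of all tested genes (3.61% lay wholly above, 9.62% either way). Because the members were chosen with this comparison known, nothing is read from these counts.

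Other genes share exon bases with the members. Of the Cebpb exon, 20.7% also lies in exons of Tmem189 on the opposite strand, and 15% of the Cebpd exons lie in exons of Spidr, likewise on the opposite strand. Use of the read strand in counting is not given in the sources used here, and without it such reads cannot be assigned to either gene. Tmem189 had 30.8 ± 1.98 CPM in the control and 32.2 ± 3.45 CPM in the hPARG dishes (SD, n = 3), or 0.06 as log2 fold change (SE 0.115). For Spidr these values were 32.9 ± 4.02 and 33.6 ± 2.53 CPM (SD, n = 3), at a log2 ratio of 0.03 (SE 0.122). The CPM of either overlapped between the groups. For Cebpa and Cebpg the shared share was 1.93% and less, with genes that had 0 counts in every dish.

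The nearest protein-coding genes on either side that do not overlap the member were also read, which leaves out Tmem189 and Spidr. Ptpn1, a tyrosine phosphatase gene 242 kb beyond Cebpb, differed by a log2 ratio of 0.03 (SE 0.129). Mzt2, 23.9 kb from Cebpd, had -0.04 (SE 0.162). Pepd, the peptidase gene 1.71 kb from the end of Cebpg, had -0.23 (SE 0.139). The groups overlapped in CPM for these 3 genes. On the other sides, Slc7a10 (64.5 kb from Cebpa), Gm20431 (27.4 kb from Cebpb) and Pkp2 (322 kb from Cebpd) did not pass the filter.

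For each tested member, the 3 genes with the most similar profile were sought among 11508 others, by the root mean square difference of log2 CPM over the 6 dishes after each gene's mean was subtracted. This measure uses the same dishes as the group difference and is a description. Nearest to Cebpb were Hes7 (0.059), 1700003E16Rik (0.087) and Osr2 (0.090), against a median of 0.350 over all genes. Hes7 and 1700003E16Rik had only 17 to 44 counts per dish. Nearest to Cebpd were Aig1 (0.084), Tlr2 (0.096) and Tmem176b (0.109), against a median of 0.468, and Aig1 had only 14 to 30 counts per dish. Tlr2, a receptor for bacterial lipoproteins, had 291, 249 and 291 counts in the controls against 179, 157 and 153 with hPARG. All 6 of these genes lay wholly lower with hPARG, beside 6.00% of all tested genes. They were picked for likeness to Cebpb and Cebpd, whose groups were separate in these same dishes, so nothing is read from this. Nearest to Cebpg were Ppp1r15b (0.016), Mttp (0.018) and Ikzf5 (0.023), all with overlapping groups and with the dish numbered 2 as the highest of each group. Cebpb ranked 27 in the list for Cebpd, and Cebpd ranked 226 in the list for Cebpb, while Cebpg ranked 1879 for Cebpb and 2729 for Cebpd. In the list for Cebpg, Cebpb ranked 8139 (0.276) and Cebpd 10423 (0.413), against a median of 0.205 over all genes. Over the 4 dishes without number 2, the genes nearest to Cebpb held ranks 3 to 14 and those nearest to Cebpd ranks 3 to 9. Those nearest to Cebpg dropped to ranks 34 to 131.

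**Figure D3:**
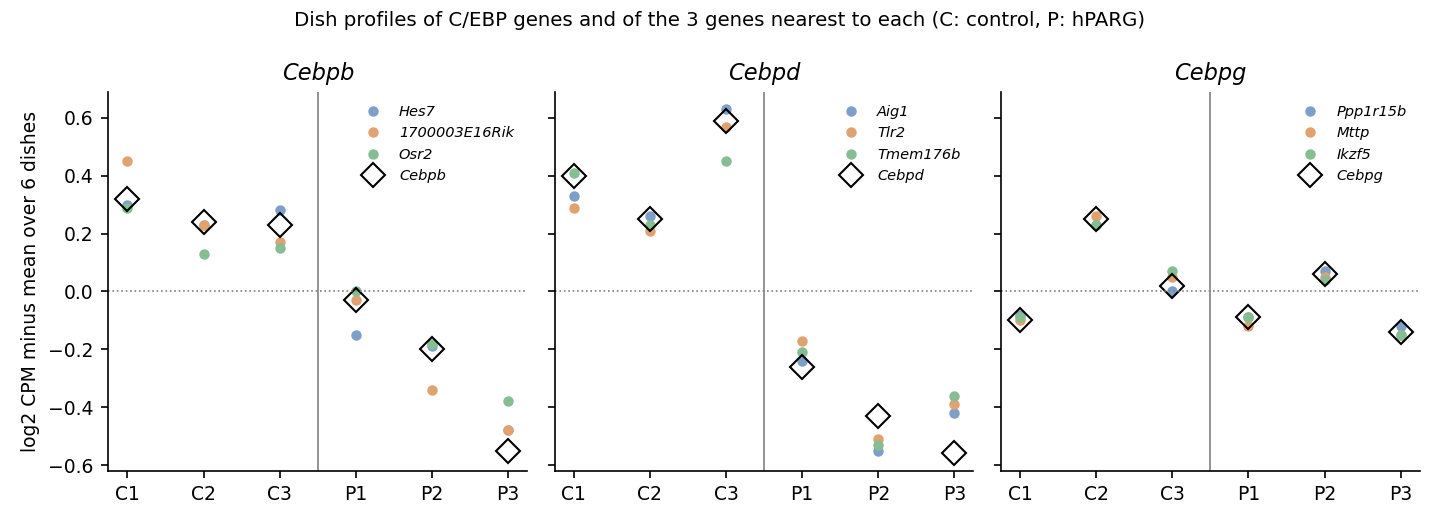
Log2 CPM minus the mean over the 6 dishes for Cebpb, Cebpd and Cebpg (open diamonds) and the 3 genes nearest to each (coloured points), with control dishes 1 to 3 (C) left and hPARG dishes 1 to 3 (P) right of the line. Cebpb runs from 0.32 to -0.55 and Cebpd from 0.59 to -0.56, whereas Cebpg stays between -0.14 and 0.25 with dish 2 highest in both groups.

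Among the other genes of the family and its bZIP partners, a list of 10 genes, 8 passed the filter. None (0) was called in either direction by edgeR or DESeq2, which called 0.0869% and 0.191% of all tested genes. An unadjusted edgeR p under 0.05 was found for 2 of the 8, beside 3.95% of all tested genes. The median log2 fold change of the 8 was 0.00, beside 0.004 over all tested genes, with 4 values below and 4 above 0. Ddit3, which encodes CHOP, a stress-induced partner that keeps C/EBP dimers off their usual sites, had 1336, 1357 and 1592 counts in the controls against 973, 1011 and 1070 with hPARG. Its groups were separate, with 61.9 ± 11.8 and 45.1 ± 3.74 CPM (SD, n = 3) and a log2 fold change of -0.45 (SE 0.15, edgeR FDR = 0.981). On the RPKM scale Ddit3 ranged from 43.5 to 75.4, between Cebpb and Cebpg in each dish.

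Atf4, the partner of C/EBPgamma in the amino acid response, had 400 ± 56.2 and 394 ± 20.6 CPM (SD, n = 3), or -0.02 as log2 fold change (SE 0.126). Atf5, a related stress factor, had 288 ± 12.9 and 297 ± 1.70 CPM (SD, n = 3), with 0.05 (SE 0.0903). On the RPKM scale Atf4 (191 to 236) and Atf5 (125 to 142) exceeded Cebpb in each of the 6 dishes. The log2 fold change of Nfil3, a bZIP repressor, was -0.32 (SE 0.133) with overlapping groups, and that of Cebpz, which shares the CCAAT-related name but is no bZIP protein, was -0.06 (SE 0.103). Among the PAR-domain factors of the circadian output, Dbp had 7.96 ± 0.265 and 9.5 ± 1.59 CPM (SD, n = 3) without overlap (log2 fold change 0.25, SE 0.147), and shared 18% of its exon bases with Sphk2 on the other strand. Tef differed by a log2 ratio of 0.03 (SE 0.136) and Hlf, at 5 to 33 counts per dish, 0.68 (SE 0.481). Cebpe, the C/EBP gene of granulocytes, had 0 counts in every dish, and Atf3 had 3 at most.

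**Figure D4:**
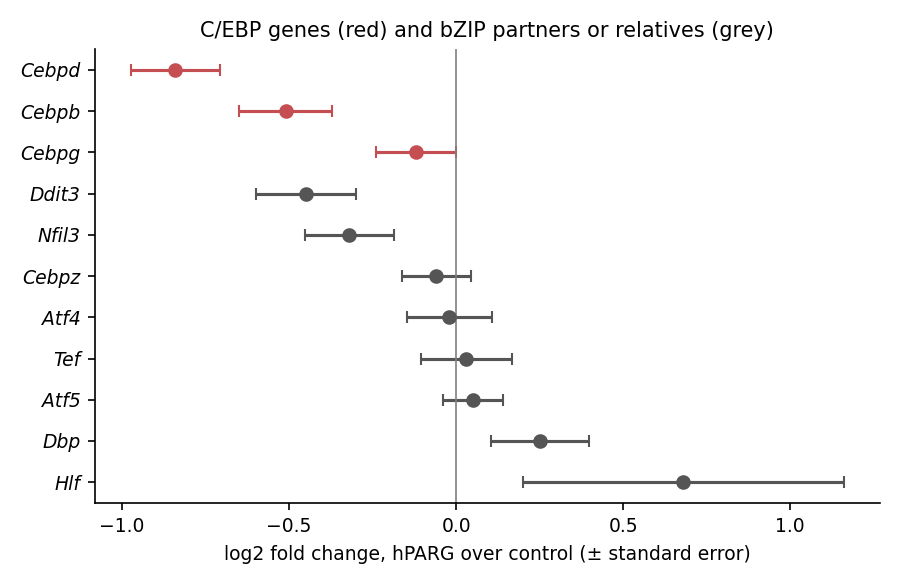
Log2 fold change of hPARG over control with its SE for the 3 tested C/EBP genes (red) and the 8 tested relatives and partners (grey). Cebpd (-0.84) and Cebpb (-0.51) lie farthest to the left, followed by Ddit3 (-0.45), while Atf4, Atf5, Tef and Cebpz lie within 0.06 of 0.

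Upstream of the C/EBP genes, 19 of 19 listed receptors, kinases and factors passed the filter. None (0) was called by edgeR or DESeq2, and 1 (beside 3.95% of all tested genes) had an unadjusted edgeR p under 0.05. The median log2 fold change was 0.01. Of those with high CPM, Il6st, the signal-transducing receptor chain of the interleukin-6 family, had 131 ± 22 and 119 ± 15.0 CPM (SD, n = 3). Nr3c1, the glucocorticoid receptor, had 69.4 ± 10.1 and 71.0 ± 11.6 CPM (SD, n = 3). The log2 fold changes of Mapk3, Gsk3b and Sp1 lay between 0.03 and 0.07, each below its SE. The groups were separate for 3 of the 19, beside 9.62% of all tested genes, and these were named after their values were seen, as were Stat3 and Trib1. Nfkbiz, a nuclear co-factor of NF-kB, had the lowest log2 fold change, -1 (SE 0.132, edgeR FDR = 0.062). Its CPM was 31.8, 37.1 and 30.7 in the controls against 14.9, 16.0 and 18.9 with hPARG. The study had itself reported Nfkbiz as lower with hPARG, from the same dishes and by qPCR. The oncostatin M receptor gene Osmr lay lower with hPARG (8.16 to 9.15 CPM against 9.29 to 10.1). The interleukin-1 receptor gene Il1r1 lay higher in all hPARG dishes (11.1 to 13.1 CPM against 9.68 to 10.8), at a log2 ratio of 0.24 (SE 0.116). Stat3, an activator of Cebpd transcription, had 0.09 (SE 0.162), and Trib1, which brings C/EBPalpha to degradation, had 0.06 (SE 0.118).

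The list of 18 acute-phase and inflammatory genes with known C/EBP sites was written with results of these dishes known. It is therefore no independent evidence, either of a direction or of the share called. Of its 11 tested genes, edgeR called 6 lower in hPARG cells and none (0) higher, which is 54.5% of them beside 0.0869% of all tested genes. DESeq2 called 9, beside 0.191% of all genes. The median log2 fold change was -2.55. The 6 called by edgeR were the iron-binding lipocalin Lcn2, the serum amyloid gene Saa3, the haptoglobin gene Hp, the complement gene C3 and the neutrophil chemokines Cxcl1 and Cxcl5, with log2 fold changes from -5.08 to -2.55. That each of them differed more between the groups than Cebpb and Cebpd did was fixed in advance by the 2-fold limit of the call rule. The listed genes that follow were named after their values were seen. Ccl2, a monocyte chemokine gene, had -1.66 (SE 0.218), the RNase gene Zc3h12a -1.15 (SE 0.154) and the protease inhibitor Slpi -1.17 (SE 0.304), all with separate groups. These 3 were called by DESeq2 and not by edgeR. The study had itself reported these 3 and the 6 called by edgeR as lower with hPARG, from the same dishes. It also gave qPCR fold changes for these genes except Hp and Zc3h12a, all of them lower with hPARG. The pattern recognition gene Ptx3 (94.6 ± 19.9 and 79.7 ± 3.16 CPM, SD, n = 3) and the prostaglandin synthase gene Ptgs2 (67.4 ± 11.3 and 59.2 ± 3.84 CPM, SD, n = 3) overlapped between the groups, with log2 fold changes of -0.25 and -0.19. The other 7 genes did not pass the filter, among them Il6, with 6, 11 and 11 counts in the controls against 4, 3 and 5 with hPARG. When hPARG dish 1 was left out, edgeR called 2 of the list, and with both dishes numbered 2 left out it called 9.

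Of 14 fat cell genes under C/EBP and PPARgamma, 11 did not pass the filter and 6 had 3 counts or fewer in every dish. Pparg itself had 3 to 10 counts, Fabp4 0 to 9, and Lep, Plin1 and Cidec 0. The lipid enzymes Scd1, Agpat2 and Lpin1 passed, with log2 fold changes of 0.18 (SE 0.176), -0.06 (SE 0.179) and 0.22 (SE 0.22). Of these 3, 0 were called by edgeR, 0 by DESeq2, and 0 had an unadjusted p under 0.05.

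All 11 genes of the amino acid response, which ATF4 drives with C/EBP partners, passed the filter. None (0) was called by edgeR or DESeq2, and 2 (beside 3.95% of all tested genes) had an unadjusted edgeR p under 0.05. The median log2 fold change was -0.05. The serine synthesis genes Psat1 and Phgdh had -0.02 (SE 0.149) and 0.03 (SE 0.164), the asparagine synthetase gene Asns 0.05 (SE 0.0969) and the mitochondrial serine hydroxymethyltransferase gene Shmt2 -0.05 (SE 0.0904). Trib3, a pseudokinase gene that ATF4 and CHOP activate, had 130, 159 and 178 CPM in the controls against 111, 114 and 103 CPM with hPARG, without overlap, and a log2 fold change of -0.51 (SE 0.13, edgeR FDR = 0.713). Sesn2, a stress-induced gene, had -0.25 (SE 0.171) with overlapping groups. Chac1 (-0.26, SE 0.114) and Nupr1 (-0.36, SE 0.148), named after their values were seen, also had separate groups, so that 3 of the 11 lay lower without overlap beside 6.00% of all tested genes.

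**Figure D5:**
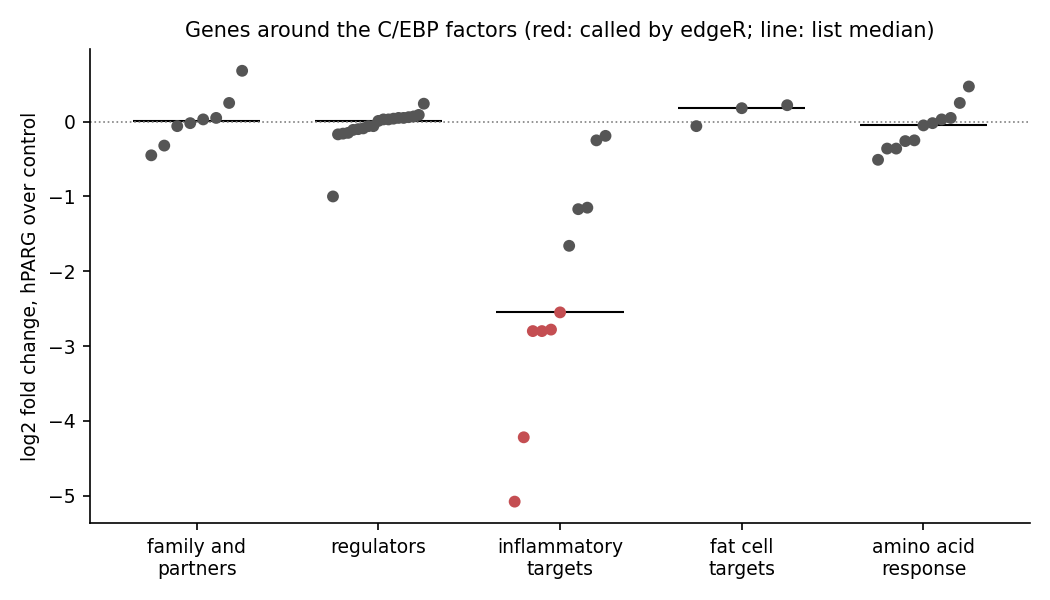
Log2 fold change of hPARG over control for each tested gene of the 5 lists, with genes called by edgeR in red and a line at the median of each list. The inflammatory list has its median at -2.55 and holds all 6 called genes, and the other medians lie between -0.05 and 0.18.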

How the data were processed

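Poly(A) RNA of 6 dishes was sequenced as paired-end reads. Per the study's methods, the authors trimmed adapters and used CLC Genomics Workbench 12.0 to map reads to GRCm38 with Ensembl release 96. The deposited counts are whole numbers per gene without normalization. The deposited RPKM values were scaled by the authors for gene length and library size (which total they used is not given in the sources used here) and served to compare levels between genes. The table also holds the authors' TPM, CPM, fold changes and p-values, which were not used. All 41819 identifiers were found in GENCODE M21, from which coordinates and exon lengths were taken. Ddit3, a symbol with 2 identifiers of which 1 had 0 counts in every dish, was matched by identifier. Promoters came from RefSeq (GRCm38.p6), with an entry for 3 of the 4 members.

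Genes kept by filterByExpr (minimum count 10) were normalized by TMM and compared with edgeR 4.0.16 (glmQLFit, glmQLFTest; R 4.3.3, limma 3.58.1) without a block, as the methods name no pairing. Genes were called at a Benjamini-Hochberg FDR under 0.05 and more than 2-fold. Standard errors were derived from the log2 fold change and the F statistic (absolute value over root F). Log2 CPM for profiles used a prior count of 2. Alternatives were DESeq2 1.42.0, RLE factors, library size only, other filters, the replicate block, dishes left out, and exon lengths from GENCODE M21 in place of the RPKM. The fit was tested on simulated data.

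Named genes were the members, the family genes that passed the filter, called genes and up to 6 of the highest CPM of each list, the 3 nearest profiles and the protein-coding neighbours. Of these, 1 gene is not reported here. Members and lists were chosen with earlier results of these data known. With 3 dishes per group, precision is limited, and an exact permutation test could not go below 0.1.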

Additional observations from a re-analysis of the deposited data

How the results depend on the processing

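The log2 fold changes of the members kept their sign and moved by less than the spread between dishes in 13 of 13 alternatives, ranging from -0.92 to -0.74 for Cebpd, -0.63 to -0.38 for Cebpb and -0.19 to -0.02 for Cebpg. None (0) of the members was called by edgeR or DESeq2 in any of them, and 2 had an unadjusted p under 0.05 in each. With the dishes numbered 2 left out, 1 member had an FDR under 0.05 at any fold change, beside 0.345% of all tested genes. The number of called genes was 10 with edgeR as used above, 22 with DESeq2 and 16 with no filter on low counts. It was 23 with the replicate block and 19 with the dishes numbered 2 left out. With each dish left out in turn it was 3 to 13 (3 without hPARG dish 1, 5 without hPARG dish 3). The study, with its own software, listed more than 10 genes at the same limits of FDR and fold change. Of the regulators, Nfkbiz, at the 2-fold limit, was called under the replicate block and when no filter was set (1 gene each). The inflammatory list, with 6 called genes, had 9 with DESeq2, with the replicate block and with the dishes numbered 2 left out, 4 to 8 under the other scalings and filters, and 2 to 7 with each dish left out in turn. Shares of summed RPKM moved by less than 1 SD with GENCODE exon lengths.

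Same-numbered dishes deviated together with r = 0.0963, 0.61 and 0.168 across genes, and control dish 3 correlated best with hPARG dish 1 (r = 0.335), so the numbers do not establish pairs. With the replicate block 330 genes (2.87%) had an FDR under 0.05 at any fold change, 2 of the members among them, with log2 fold changes of -0.83 (Cebpd) and -0.52 (Cebpb). Counts of 3 dishes per group limit all values, and Cebpa lies near the floor of detection. For these results the causes were not tested.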
